A study of Mus musculus with 6 samples.

Results

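The choroid plexus genes described here are 7 genes chosen by symbol, Ttr, Enpp2, Kl, Folr1, Aqp1, Clic6 and Otx2, all of which were found among the 32531 gene features of each library. They were chosen with earlier results of these data known. The libraries come from the hypothalamus of adult, untreated control mice of the line Lhx5-TRAP DT154, in which EGFP fused to the ribosomal protein L10a (Rpl10a) is made under control of the Lhx5 driver, so that only cells in which this driver is active carry the tag. RNA bound to the tagged ribosomes and pulled down with antibodies against EGFP (IP, 3 libraries) was set against RNA of the unbound fraction (unbound, 3 libraries, called input in the sample titles). The animal line and the lack of treatment are common to both groups, and the labels do not say whether replicates were separate animals or pools, so p-values measure the spread between these samples, which may be technical. The comparison asks which RNAs the tagged ribosomes carry relative to the rest of the tissue RNA.

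The choroid plexus is a vascular fold covered by a secretory epithelium that hangs into the brain ventricles and makes the cerebrospinal fluid. Its epithelial cells release carrier and signalling proteins into the fluid, take up vitamins from the blood and move water and ions across the cell layer. It is not a part of the hypothalamus, but the plexus of the third ventricle lies above it. Several of the genes are also known from other cells, Enpp2 from oligodendrocytes and Otx2 from neurons of the midbrain and thalamus.

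Gene counts per library totalled 32471045 to 46293837 in IP and 32926146 to 40768577 in unbound. Lhx5 stood at 56.7, 58.1 and 70.5 CPM (reads scaled to a common library size, after TMM normalization) in IP replicates 1 to 3, against 2.03, 1.86 and 6.28 CPM in unbound replicates 1 to 3. Unbound replicate 3 stood apart from the other unbound libraries in regional markers as well. The summed level of 12 midbrain dopamine neuron genes was 624 CPM there, against 164 and 145 CPM in unbound replicates 1 and 2, and that of 9 striatal projection neuron genes was 192 CPM, against 2540 and 2049 CPM. Aldh1a1 alone made up 325 of the 624 CPM. Of the 9 midbrain genes tested 8 were higher in unbound replicate 3 and 1, Nr4a2, was lower (24.1 CPM against 48.3 and 52.2 CPM). The main results on the choroid plexus genes are therefore given with and without that library.

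The choroid plexus genes were lower in IP than in unbound replicates 1 and 2, and 6 of the 7, all but Otx2, were also lower in unbound replicate 3 than in those 2 libraries. Against the pooled reads of the other unbound libraries, unbound replicate 3 was 66.9-fold lower for Ttr, 60.7-fold for Folr1, 10.1-fold for Clic6, 6.88-fold for Kl and 2.46-fold for Enpp2, and 2.55-fold higher for Otx2. Aqp1 had 1 read there. With all 6 libraries, 2 of the 6 genes that passed the count filter fell in IP, Enpp2 and Otx2, against 23.2% of all genes tested. Without unbound replicate 3 all 7 passed the filter and all 7 fell, against 25.8% of all genes tested. Aqp1 passed it only through unbound replicates 1 and 2, where it is high, so its fall is no support. Unbound replicate 3 was left out with its low values for these genes known, so the larger number of calls is no independent support.

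**Figure D1:**
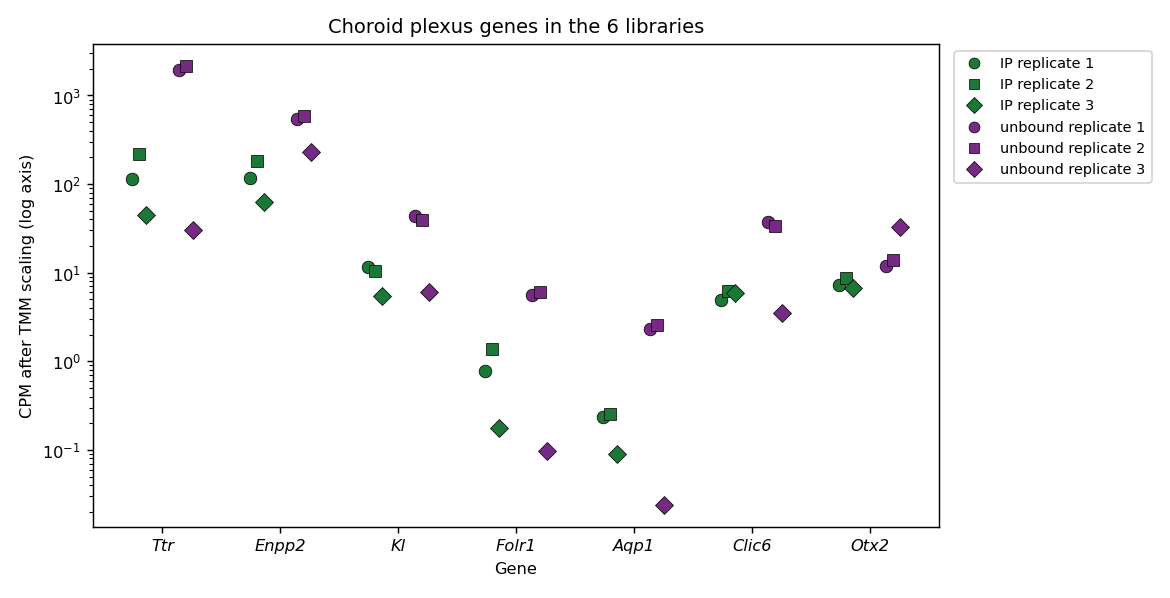
Level of each choroid plexus gene in each library, in CPM after TMM scaling on a log axis, with IP libraries in green left of the unbound libraries in purple and the replicate number as marker shape. For Ttr, Folr1, Aqp1 and Clic6 the diamond of unbound replicate 3 lies below all 5 other libraries, and for Otx2 it lies above them.

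Of the 3 secreted proteins, Ttr encodes transthyretin, the carrier of thyroid hormone and of retinol-binding protein in cerebrospinal fluid. Its position is chromosome 18, 20665280 to 20674321, plus strand (mm10, annotated by GENCODE M21). It stood at 115, 221 and 45.3 CPM in IP replicates 1 to 3, against 1961, 2155 and 30.6 CPM in unbound replicates 1 to 3. Unbound replicates 1 and 2 were far above every IP library, but unbound replicate 3 was below every one of them, so the groups overlapped. The log2 fold change was -3.44 ± 1.47 (SE), which did not pass (adjusted p = 0.110 from the quasi-likelihood test of edgeR, adjusted by Benjamini-Hochberg over 16991 genes). With the replicate number as a block it was -2.48 ± 1.21 and also did not pass (adjusted p = 0.170), and with limma-voom it was -2.27 (adjusted p = 0.243). Without unbound replicate 3 it was -4.03 ± 0.59 and passed (adjusted p = 0.00195 in the same edgeR test). In bulk RNA such as this, fewer cells of a type and less RNA per cell cannot be told apart.

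Enpp2 (chromosome 15, 54838901 to 54952892, minus strand) encodes autotaxin, the secreted enzyme that makes lysophosphatidic acid. Its level was 117, 182 and 63.3 CPM in IP replicates 1 to 3, against 549, 590 and 231 CPM in unbound replicates 1 to 3. Every IP library lay below every unbound library. The log2 fold change was -1.92 ± 0.48 and passed (adjusted p = 0.0176, edgeR). The call was lost without IP replicate 1 (adjusted p = 0.0592), IP replicate 3 (0.0524), unbound replicate 1 (0.0638) or unbound replicate 2 (0.0561), and with no count filter (0.0548), all in the same edgeR test. Without unbound replicate 3 the log2 fold change was -2.25 ± 0.32 (adjusted p = 5.1e-04, edgeR).

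Kl encodes Klotho, the co-receptor for the hormone FGF23, whose outer part is also released into the fluid. Its position is chromosome 5, 150952607 to 150993817, plus strand. It stood at 11.6, 10.5 and 5.51 CPM in IP replicates 1 to 3, against 43.5, 39.0 and 6.02 CPM in unbound replicates 1 to 3. Unbound replicate 3 was within the range of the IP libraries. Its log2 fold change, -1.68 ± 0.72, missed the threshold of 0.05 (adjusted p = 0.105, edgeR). It passed at -1.34 ± 0.39 in the fit blocked on replicate number (adjusted p = 0.0384), and at -2.17 ± 0.27 without unbound replicate 3 (adjusted p = 2.2e-04, both edgeR).

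Of the 3 membrane proteins, Folr1 encodes folate receptor alpha, which carries folate across the choroid epithelium. Its position is chromosome 7, 101858331 to 101870788, minus strand. It was measured by 33, 43 and 8 reads in IP replicates 1 to 3 (0.784, 1.38 and 0.178 CPM), against 226, 207 and 4 reads in unbound replicates 1 to 3 (5.66, 6.01 and 0.0959 CPM). The 4 reads of unbound replicate 3 gave the lowest level of the 6 libraries. Counting error alone put it between 23.6-fold and 224-fold below the pooled reads of unbound replicates 1 and 2 (exact 95% interval, which covers counting error only). The log2 fold change between groups was -2.35 ± 1.27 (adjusted p = 0.176, edgeR), and -2.95 ± 0.58 without unbound replicate 3 (adjusted p = 0.00269, edgeR).

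Aqp1 (chromosome 6, 55336432 to 55348555, plus strand) is the water channel of the apical membrane. It had 10, 8 and 4 reads in IP replicates 1 to 3 (0.238, 0.257 and 0.0889 CPM), against 93, 89 and 1 read in unbound replicates 1 to 3 (2.33, 2.59 and 0.0240 CPM). At this depth the 1 read of unbound replicate 3 gave a ratio to the other unbound libraries of 0.00979, with an exact 95% counting interval of 2.5e-04 to 0.0552. Aqp1 did not pass the count filter with all 6 libraries. Tested with no filter its log2 fold change was -3.07 ± 1.25, short of the threshold (adjusted p = 0.0981, edgeR), and without unbound replicate 3 it was -3.67 ± 0.56 and passed (adjusted p = 6.7e-04, edgeR). Aqp1 entered that last fit only through unbound replicates 1 and 2, where it is high.

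Clic6 (chromosome 16, 92485736 to 92541243, plus strand) belongs to the chloride intracellular channel family. Its level was 4.94, 6.27 and 5.87 CPM in IP replicates 1 to 3, against 37.1, 33.6 and 3.50 CPM in unbound replicates 1 to 3. It was the 1 member that was not lowest in replicate 3 among the IP libraries. The log2 fold change was -2.12 ± 0.79 (adjusted p = 0.0723, edgeR). Without unbound replicate 3 it was -2.64 ± 0.17 (adjusted p = 1.3e-05, edgeR).

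Otx2 encodes a homeodomain transcription factor needed to form and keep the choroid epithelium (chromosome 14, 48657677 to 48673819, minus strand). It stood at 7.17, 8.61 and 6.75 CPM in IP replicates 1 to 3, against 11.8, 14.0 and 32.7 CPM in unbound replicates 1 to 3. The groups did not overlap, and unbound replicate 3 was the highest library, whereas for Ttr it was the lowest. The log2 fold change was -1.38 ± 0.37 with all libraries (adjusted p = 0.0172, edgeR) and -0.79 ± 0.20 without unbound replicate 3 (adjusted p = 0.00904, edgeR). The call was lost without IP replicate 1 (adjusted p = 0.0671, edgeR) or IP replicate 3 (adjusted p = 0.0605, edgeR). Otx2os1 overlaps Otx2, Anapc15 overlaps Folr1 and Gm26684 overlaps Enpp2, each on the opposite strand, and since the strand setting of the counting is not given, reads of such partners cannot be told apart. On the same strand Gm49154 overlaps Otx2 and 2410124H12Rik overlaps Clic6, and no strand setting separates those.

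The promoters of Kl, Aqp1 and Otx2 are shown because RefSeq sequence (GRCm38.p6) was at hand for these 3 of the 7 genes. In unbound replicate 3 Kl and Aqp1 were lower than in the other unbound libraries, to unlike degrees, and Otx2 was higher. Each line gives the 250 bases before an annotated start, 5′ to 3′ on the gene's strand, at chr5:150952357-150952606 (plus), chr6:55336049-55336298 (plus) and chr14:48667645-48667894 (minus). Capitals mark matches on either strand to TAATCC, the core of the OTX type homeodomain site, TAATTA, the core of many other homeodomain sites, or GGGCGG, the GC box.
Kl: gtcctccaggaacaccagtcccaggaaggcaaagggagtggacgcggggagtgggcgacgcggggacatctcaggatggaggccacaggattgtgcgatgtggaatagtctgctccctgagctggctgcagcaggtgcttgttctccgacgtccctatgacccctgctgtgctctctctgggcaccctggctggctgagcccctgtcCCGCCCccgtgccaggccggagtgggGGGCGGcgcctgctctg
Aqp1: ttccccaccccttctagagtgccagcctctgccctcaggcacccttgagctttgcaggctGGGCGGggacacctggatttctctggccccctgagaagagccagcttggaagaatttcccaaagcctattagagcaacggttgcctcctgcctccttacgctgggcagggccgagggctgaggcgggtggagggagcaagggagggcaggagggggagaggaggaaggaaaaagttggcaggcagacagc
Otx2: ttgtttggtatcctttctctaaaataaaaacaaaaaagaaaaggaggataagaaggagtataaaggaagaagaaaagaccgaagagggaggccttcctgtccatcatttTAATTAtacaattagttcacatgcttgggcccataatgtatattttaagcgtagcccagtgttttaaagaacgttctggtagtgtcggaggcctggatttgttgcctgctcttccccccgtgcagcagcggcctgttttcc
TAATCC was in none of these 3 windows and in 1 of the 6 windows of the 3 genes, against 6.25% of 32851 windows of the same length. That window belongs to another start of Otx2 (chr14:48665110-48665359). Both it and the Otx2 window shown lie inside the gene's annotated span. GGGCGG was found 2 times for Kl, 1 time for Aqp1 and 0 times in the Otx2 window shown, and is in 32.7% of all windows. TAATTA was found 1 time in the Otx2 window shown and 3 times in the Otx2 window with TAATCC, and is in 4.84% of all windows. A match describes the letters and not a bound site.

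Genes were compared per kilobase of annotated exon, pooled over all transcripts of a gene, which need not be the length of the transcript present. On that scale Ttr was the highest of the 7 genes in 5 of the 6 libraries. In IP replicates 1 to 3 it stood at 97.4, 187 and 38.2 CPM per kb, against 1653, 1817 and 25.8 CPM per kb in unbound replicates 1 to 3. Enpp2 followed at 20.2, 31.5 and 10.96 CPM per kb in IP replicates 1 to 3, against 94.9, 102 and 39.9 CPM per kb in unbound replicates 1 to 3, and was above Ttr in unbound replicate 3. The next places went to Otx2, Clic6 and Kl in every IP library, where the ranges of Otx2 (1.60 to 2.04 CPM per kb) and Clic6 (1.26 to 1.60 CPM per kb) met. In IP replicate 1 Clic6 and Kl were nearly equal (1.26 and 1.24 CPM per kb), so their order there is open. In unbound replicates 1 and 2 the order was Clic6, Kl and Otx2, and in unbound replicate 3 Otx2, Clic6 and Kl. Folr1 and Aqp1 were the lowest pair in all 6 libraries.

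The ratios among the genes separated them further. Folr1 had 3.13 reads for every 1000 reads of Ttr in unbound replicate 3, against 2.89 and 2.79 in unbound replicates 1 and 2. Aqp1 had 0.782 per 1000 Ttr reads in unbound replicate 3, from its 1 read, against 1.19 and 1.20. The ratio of Folr1 was thus near that of the other unbound libraries, on 4 reads, and 1 read of Aqp1 is too few to read a ratio from. Kl had 196 reads per 1000 Ttr reads in unbound replicate 3, against 22.2 and 18.1 in unbound replicates 1 and 2. Clic6 had 114 there, against 18.9 and 15.6. The step was far larger for Enpp2, with 7530 reads per 1000 Ttr reads against 280 and 274, and for Otx2, with 1067 against 5.99 and 6.51.

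**Figure D2:**
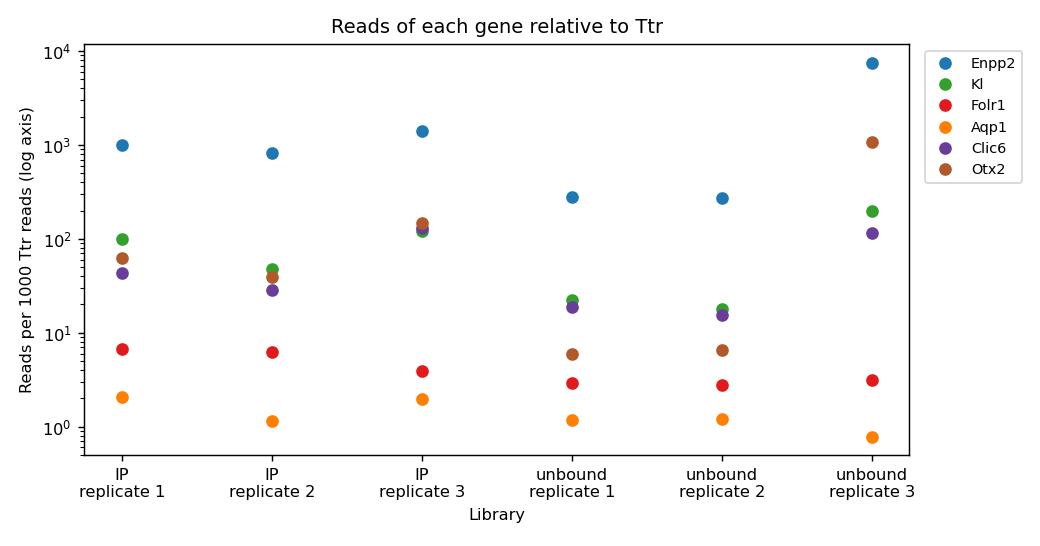
Reads of each of the other 6 genes per 1000 reads of Ttr in each library, on a log axis, with the IP libraries to the left of the unbound libraries. Folr1 stays between 2.79 and 3.13 in the unbound libraries, whereas Enpp2 reaches 7530 and Otx2 1067 in unbound replicate 3.

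In every IP library Enpp2, Kl, Folr1, Clic6 and Otx2 were higher relative to Ttr than in unbound replicates 1 and 2. Otx2 had 62.1, 38.9 and 149 reads per 1000 Ttr reads in IP replicates 1 to 3, and Enpp2 had 1011, 823 and 1397. Kl had 47.5 to 122, Clic6 28.3 to 129 and Folr1 3.92 to 6.79. The 3.92 of Folr1 comes from 8 reads in IP replicate 3. These are too few to set it apart from the 2.89 and 2.79 of unbound replicates 1 and 2. For Enpp2, Otx2 and Kl all 3 IP libraries were below unbound replicate 3 in the ratio to Ttr.

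Replicate 3 was low on the IP side too for Ttr, Enpp2, Kl and Folr1. IP replicate 3 was the lowest IP library for 6 of the 7 genes, against 35.4% of the genes tested. Aqp1 is not counted among those tested. For Otx2 the exact counting interval overlapped that of IP replicate 1 (6.02 to 7.56 against 6.39 to 8.03 CPM). For Aqp1, with 4 reads, it overlapped those of both other IP libraries. Counting error thus leaves the place of IP replicate 3 open for Otx2 and Aqp1. On the log2 scale the Ttr level of IP replicate 3 differed from the mean of the other IP libraries by -1.82. For Folr1 the difference was -2.26, for Enpp2 -1.20, for Aqp1 -1.09 and for Kl -0.995, while Clic6 differed by 0.08 and Otx2 by -0.22. These are single libraries set against a pair and carry no test.

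Within replicate numbers the IP minus unbound difference of Ttr on the log2 scale was -4.09 for replicate 1, -3.28 for replicate 2 and 0.56 for replicate 3. Folr1, Aqp1 and Clic6 were also negative for replicates 1 and 2, and lay between 0.64 and 0.90 for replicate 3. In replicate 3 Folr1 had 8 IP reads against 4 unbound reads, and Aqp1 had 4 against 1. The exact counting intervals of IP and unbound replicate 3 overlapped for Folr1 (0.0767 to 0.350 against 0.0261 to 0.246 CPM). They also overlapped for Aqp1, so the sign in replicate 3 is open for Folr1 and Aqp1. Kl was at -1.90, -1.89 and -0.13 for replicates 1 to 3. Enpp2 did not follow the pattern of Ttr, at -2.23, -1.70 and -1.86 for replicates 1 to 3. Otx2 had its largest difference in replicate 3, at -2.27, against -0.71 and -0.70 for replicates 1 and 2.

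**Figure D3:**
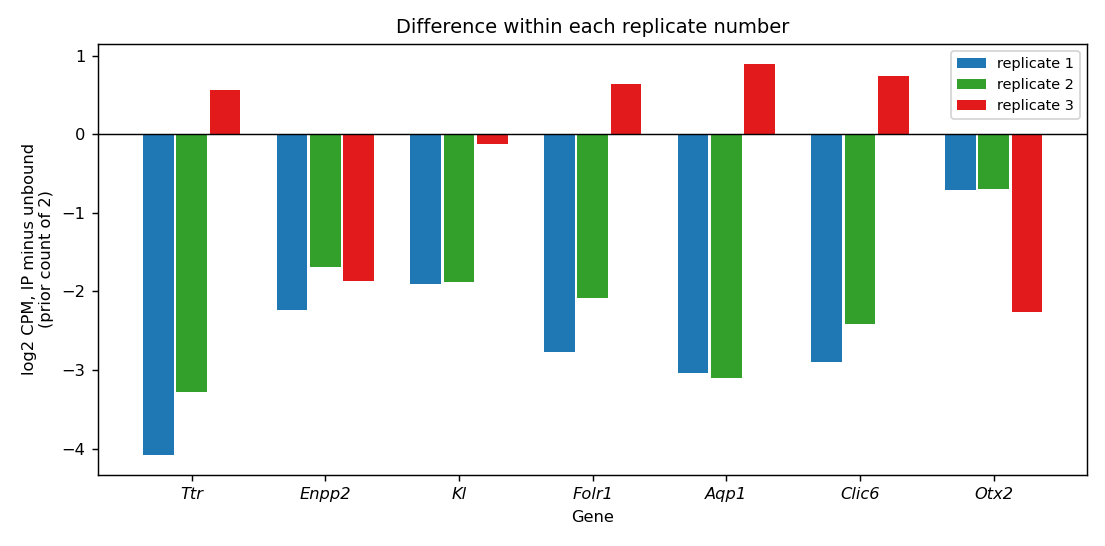
Difference in log2 CPM (prior count of 2), IP minus unbound, between libraries with the same replicate number, for each gene. The bars of replicate 3 are above 0 for Ttr, Folr1, Aqp1 and Clic6 and near 0 for Kl, and that of Otx2 is the longest of its 3. For Folr1 and Aqp1 the replicate 3 bar rests on few reads, 8 against 4 and 4 against 1, and its sign is open.

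In unbound replicate 3, 5 of the 7 genes (Ttr, Kl, Folr1, Aqp1 and Clic6) were at least 4-fold below the mean of the other unbound libraries on the log2 scale, against 2.10% of the genes tested, among which Aqp1 is not counted. Since the genes were chosen with earlier results of these data known, the shares here are a description and no test of enrichment. At least 2-fold above was Otx2 alone of the 7, against 6.04% of genes tested. On that scale Ttr differed by -6.07, Folr1 by -5.32, Aqp1 by -5.06, Clic6 by -3.32, Kl by -2.76, Enpp2 by -1.30 and Otx2 by 1.35. Of the genes on either side of the 4-fold limit, the nearest were Enpp2 outside it and Kl inside it, and neither was close to it. Of the 7 genes 4 (Ttr, Folr1, Aqp1 and Clic6) were lower in unbound replicate 3 than in all 5 other libraries, IP included, against 16.1% of genes tested. For Folr1 (4 reads) and Aqp1 (1 read) the counting interval of unbound replicate 3 overlapped that of IP replicate 3. Counting error thus leaves their place as the lowest library open. The median over all genes tested was 0.11.

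Between the groups, 2 of 6 tested members fell in IP and the other 4 did not pass, against 23.2% of all 16991 genes tested that fell and 44.3% called in either direction (3586 higher and 3943 lower). Their median was -2.02, beside -0.01 over all genes tested. Groups that did not overlap, with every IP library below every unbound library, were seen for 2 of the 7 members and 28.7% of genes. Without unbound replicate 3, a library left out with its low values known, all 7 fell with a median of -2.64, against 25.8% of 17256 genes that fell and 49.8% called in either direction. Among the 7, Aqp1 passed the filter only through unbound replicates 1 and 2, where it is high, so its fall is no support. In that fit the smallest change was that of Otx2 and the largest that of Ttr. Within lane 2, which holds replicates 1 and 3, 1 member was called, Enpp2 (-2.11, adjusted p = 0.0296, edgeR), and lane 4, with 1 library per group, allows no test. Scaling on pan-neuronal genes shifted the median of all genes to -0.56 and gave 723 higher and 7375 lower calls (8.93% higher, against 47.6% with TMM scaling). The members' median was then -2.58, and 4 of 6 fell.

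**Figure D4:**
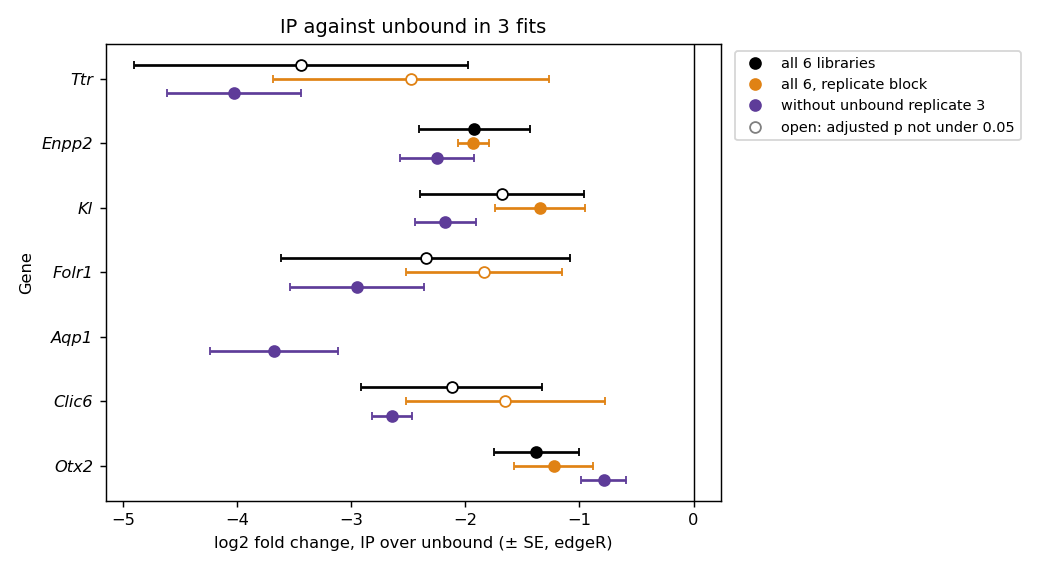
Log2 fold change of each gene, IP over unbound, with its SE from edgeR, for all 6 libraries (black), with the replicate number as a block (orange) and without unbound replicate 3 (purple). Filled points passed an adjusted p of 0.05, and all 7 purple points are filled. Aqp1 has a point only in the fit without unbound replicate 3, having failed the count filter in the others. It entered that fit only through unbound replicates 1 and 2, where it is high, so its filled point is no support.

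Other genes of the choroid epithelium, in 3 lists of markers chosen with earlier results of these data known, were mixed in unbound replicate 3. Of 43 tested, 31 were lower there than in the other unbound libraries and 12 were higher, with a median difference of -0.85, beside 0.11 over all genes tested. At least 4-fold lower were 15, and 0 were at least 4-fold higher, against 2.10% and 0.842% of all genes tested. Among 16 transporters and enzymes of fluid secretion 6 were in the low set, among them Car12, a carbonic anhydrase, which had 1.49 CPM in unbound replicate 3, compared with 36.7 and 36.8 CPM in unbound replicates 1 and 2. Kcne2, a potassium channel subunit, stood at 0.575 CPM there against 4.86 and 5.84 CPM, and Slc4a5, a bicarbonate cotransporter, at 0.575 CPM against 8.64 and 7.38 CPM. Slc22a8, an organic anion transporter, and Car14 went the other way, at 9.66 CPM against 4.54 and 4.68 CPM and at 12.1 CPM against 4.66 and 7.002 CPM.

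Among 12 secreted and matrix genes 4 were at least 4-fold lower in unbound replicate 3. F5, coagulation factor V, stood at 0.527 CPM there against 16.4 and 15.3 CPM in the other unbound libraries, whereas Igf2, a growth factor also made by meninges and vessels, stood at 181 CPM against 144 and 125 CPM. Among 15 tested genes of epithelial identity 5 were in the low set. Cldn2, a tight junction protein of leaky epithelia, stood at 0.671 CPM there against 5.59 and 6.62 CPM, and Prr32 at 0.0719 CPM against 4.84 and 4.18 CPM. In the same list 4 of the 15 were higher in unbound replicate 3, but only by 0.006 to 0.17 on the log2 scale, near the median over all genes tested (0.11). Trpm3, at 60.6 CPM against 59.7 and 56.9 CPM, was 1 of them.

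Between IP and unbound, 23 of these 43 genes fell and 3 rose with all 6 libraries (median -2.01), and 30 fell and 2 rose without unbound replicate 3 (median -2.44). Of all genes tested 23.2% fell with all 6 libraries and 25.8% without unbound replicate 3. Of the transporters 9 fell, with Car14 (-3.40), Slc22a8 (-3.52), Slc13a4, a sulfate transporter (-2.87), and Slc12a2, a sodium, potassium and chloride cotransporter (-1.57), at the smallest adjusted p. The secreted and matrix genes gave 7 falls and 2 rises. Igf2 (-4.03), Pltp (-2.37) and Igfbp2 (-2.98) fell, and Spint2 (1.27) and Ace (0.64) rose, with the call of Ace lost without unbound replicate 3. The epithelial identity genes gave 7 falls and 1 rise, with Trpm3 (-1.12), Rdh5 (-2.66), Msx1 (-4.69) and Calml4 (-3.18) falling and Htr2c, a serotonin receptor also made by neurons, rising (0.75). Msx1 averaged 0.0255 CPM in IP and passed the count filter through the unbound libraries, so the size of its fall rests on few IP reads.

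Markers of other cell types moved in unbound replicate 3 as well, and their part in the values above was not tested. The falls and rises in the lists that follow stand beside 3943 lower (23.2%) and 3586 higher of all 16991 genes tested. Without unbound replicate 3 the numbers for all genes are 4448 lower (25.8%) and 4139 higher of 17256. All 12 oligodendrocyte genes were higher there than in the mean of the other unbound libraries, with a median difference of 0.77 and a summed level of 7250 CPM against 3965 and 3779 CPM. In the IP libraries that sum was 389, 597 and 354 CPM, and all 12 genes fell (median -3.64), led by Opalin (-4.08), Mal (-3.85), Mog (-3.99) and Aspa (-3.57). The 9 tested midbrain dopamine genes had a median difference of 2.80 in unbound replicate 3, with 7 at least 4-fold higher, against 0.842% of all genes tested. Th, tyrosine hydroxylase, had a level of 48.5 CPM there, compared with 8.90 and 5.38 CPM in unbound replicates 1 and 2. Between groups 4 of the 9 fell in IP, Aldh1a1 (-4.09), Th (-3.48), Slc18a2 (-1.93) and En2 (-4.55), and 1 fell with the replicate number as a block. Without unbound replicate 3, 4 fell and 2 rose.

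All 9 striatal genes were at least 4-fold lower in unbound replicate 3 (median difference -3.63), in the same direction as Ttr, against 2.10% of all genes tested. Between groups 1 of them fell with all 6 libraries, Rgs9 (-2.45), a call lost with the replicate block (adjusted p = 0.0949, edgeR), and 9 fell without unbound replicate 3. Of 10 ependymal genes 1 was at least 4-fold lower in unbound replicate 3 (median difference -0.73), and their summed level was 29.9 CPM there, against 45.1 and 36.1 CPM. Between IP and unbound 5 ependymal genes fell, among them Ccdc153 (-3.84), Dynlrb2 (-2.74) and Tmem212 (-3.83), and Fam183b rose (1.37). Of 6 tested tanycyte genes, 2, Crym and Gpr50, were at least 4-fold lower in unbound replicate 3, and 2, Dio2 (-3.77) and Col23a1 (-2.54), fell in IP. Gpr50 had a log2 fold change of 1.98 that missed the threshold (adjusted p = 0.0530, edgeR), and it rose in the blocked fit (2.35, adjusted p = 0.0251, edgeR) and without unbound replicate 3 (1.44, adjusted p = 0.00329, edgeR). Without that library 3 of 7 tested tanycyte genes fell and 1 rose. The 7 tested meningeal fibroblast genes were all higher in unbound replicate 3 (median difference 1.43), and 6 fell in IP, among them Ogn (-5.23), Dcn (-3.24), Slc6a13 (-4.54) and Col1a2 (-2.61). Ogn, Slc6a13 and, among the ependymal genes, Tmem212 were near 0 in IP (means of 0.151, 0.149 and 0.0784 CPM). They passed the count filter through the unbound libraries, so the size of their falls rests on few IP reads.

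**Figure D5:**
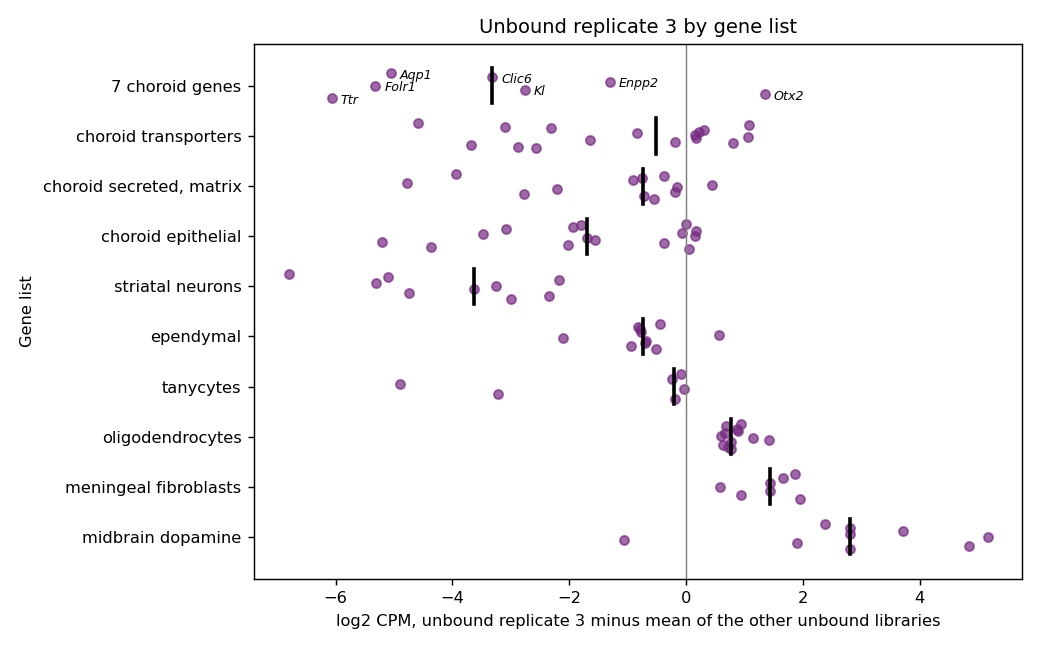
Difference in log2 CPM between unbound replicate 3 and the mean of the other unbound libraries, 1 point per tested gene (all 7 choroid plexus genes in the top line), by gene list, with a black bar at each list's median. Ttr, Folr1, Aqp1, Clic6 and Kl lie with the 9 striatal genes to the left, Otx2, at 1.35, lies to the right, near the median of the meningeal fibroblast genes (1.43) and below that of the midbrain dopamine genes (2.80), and Enpp2 lies at -1.30.

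The last lists hold endothelial, thalamic and pan-neuronal genes, to be set beside 3943 lower and 3586 higher of all 16991 genes tested. Of 9 tested endothelial genes 4 fell in IP, Ly6c1 (-5.05), Slco1a4 (-2.69), Tek (-3.11) and Flt1 (-2.56), and 7 were higher in unbound replicate 3 (median difference 1.11). Ly6c1 and Tek averaged 0.0419 and 0.159 CPM in IP. Both passed the count filter through the unbound libraries, so the size of their falls rests on few IP reads. The call of Flt1 was lost in the blocked fit (adjusted p = 0.0990, edgeR) and without unbound replicate 3 (adjusted p = 0.0696, edgeR), and 3 endothelial genes fell in each. Of 9 tested thalamic and habenular genes 4 fell, among them Plekhg1 (-2.59), Prkcd (-2.01) and Rora (-1.36), and Calb2 rose (2.55), with a median difference of 0.36 in unbound replicate 3. Without that library 4 fell and 3 rose. Of 20 pan-neuronal genes 13 rose and 1 fell, with Gap43 (1.013), Uchl1 (0.86), Stmn3 (1.24) and Tubb3 (0.91) at the smallest adjusted p, and their median difference in unbound replicate 3 was 0.03. Without that library 16 rose and 1 fell.

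Ranked by distance of the centred log2 CPM profile over the 6 libraries, the 8 genes of 10567 most like Ttr were Dlx6os1, Ankrd63, Ppp1r1b, Kcnh3, F5, Cd4, Crym and Itpka, with distances of 0.930 to 1.60 and Pearson's r of 0.971 to 0.997 as a description over 6 libraries that share their group structure. Dlx6os1 stood at 1.81, 2.89 and 1.04 CPM in IP replicates 1 to 3, against 22.9, 24.8 and 0.312 CPM in unbound replicates 1 to 3. F5 belongs to the choroid lists, Crym to the tanycyte list and Ppp1r1b to the striatal list. The 4 members in the ranking stood at places 43 (Clic6), 55 (Kl), 115 (Enpp2) and 7596 (Otx2), and Folr1 and Aqp1 were below the minimum mean of 5 CPM.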

How the data were processed

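Per the submitters' processing notes, STAR 2.0.0e, HTSeq and the build mm10 were used. The authors deposited raw counts per gene feature, 1 library per file. For annotation, strand setting and overlap rule the sources used here give no entry. HTSeq's 5 summary lines and the line of unknown features (2 reads in unbound replicate 2, 0 in the others) were left out of library sizes and tests.

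Levels are CPM after TMM scaling over all gene rows. Tests used edgeR 4.0.16 under R 4.3.3 (filterByExpr, minimum count of 10 and minimum total of 15, robust quasi-likelihood fit on group, Benjamini-Hochberg adjustment over all genes tested, threshold 0.05, checked on simulated data), and SE is the log2 fold change over the square root of F. Log2 levels used a prior count of 2. Unbound replicate 3 was set against the other unbound libraries with no test. The fold ratios there pool the reads of the other unbound libraries and carry exact binomial 95% intervals. Alternatives were median-ratio, library-size and pan-neuronal scaling, other filters, DESeq2 1.42.0, limma-voom (limma 3.58.1), the replicate block, lane, lane 2 alone, each library left out and the third pair left out.

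The members and lists were chosen with earlier results of these data known. Genes named are the members, Lhx5, Rpl10a, up to 4 tested genes per list, by smallest adjusted p, and the 8 genes nearest to Ttr. Others, such as Car12, Kcne2, Slc4a5, Cldn2, Prr32, Ace, Htr2c, Nr4a2, Lpar2, Fgfr1, Slc46a1, Aqp4, Otx1 and Enpp5, were named after their values were seen. Replicates of a group differed beyond counting noise (chi-square per degree of freedom 23.0 to 136). Within each replicate number, the IP and the unbound library deviated together from their groups (correlations 0.14, 0.16 and 0.21, each over 0.1). On these data, and with no label that says so, the numbers were taken as pairing the libraries. The main fit and its counts leave that pairing out, and the fit with the replicate block takes it in as an alternative. Lane follows the numbers, with lane 4 for replicate 2. Rpl10a, the tagged gene, averaged 6.57 CPM in IP and 8.57 CPM in unbound libraries (adjusted p = 0.139, edgeR). Positions are those of GENCODE M21, on GRCm38 (mm10).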

Additional observations from a re-analysis of the deposited data

How the results depend on the processing

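Every member was lower in IP in every alternative that tested it. The number of members called, 2 of 6, was 1 with no filter (Otx2), 1 with lane 2 alone (Enpp2), 4 with pan-neuronal scaling (Clic6, Enpp2, Kl and Otx2), 4 with DESeq2 (Clic6, Enpp2, Otx2 and Ttr), 7 without the third pair, and 0 to 7 with 1 library left out: 0 without IP replicate 1 or IP replicate 3, 1 without unbound replicate 1 or unbound replicate 2, and 7 without unbound replicate 3. Aqp1 is among the 7 in both fits with 7 calls, and passed the filter there only through unbound replicates 1 and 2, where it is high. The number of members called was 3 with the replicate block, where Kl joined, and the block changed no other member's call. In the blocked edgeR fit Enpp2 was at -1.93 (adjusted p = 6.3e-04) and Otx2 at -1.23 (adjusted p = 0.0302). Folr1 was at -1.83 there (adjusted p = 0.0686) and Clic6 at -1.65 (adjusted p = 0.194). With limma-voom the log2 fold change was -1.37 for Folr1 and -1.50 for Clic6, folds over 1.5 times smaller than with edgeR. The cause of these changes was not tested. The number of genes called, 7529, was 5824 to 8587 with 1 library left out and 3835 with lane 2 alone, which has 2 libraries per group. The 5 members at least 4-fold lower in unbound replicate 3 were also 5 under other scalings, a prior count of 0.5, and against either other unbound library alone (chosen after the data were seen), though with that prior count Folr1 was at -5.75 and Aqp1 at -6.07. Depth limits Folr1 and Aqp1, which had 4 reads and 1 read in that library.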

Other observations

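Genes that act with the choroid plexus genes, here called partners, were compared between IP and unbound RNA as well. Of 11 tested partners 5 fell and 2 rose, beside 3943 lower and 3586 higher of all 16991 genes tested. The share of rises is thus near that of all genes. Among the receptors for lysophosphatidic acid, the product of autotaxin, Lpar1 stood at 2.33, 4.76 and 2.89 CPM in IP replicates 1 to 3, against 24.2, 25.9 and 37.7 CPM in unbound replicates 1 to 3, a log2 fold change of -3.15, and every IP library was below every unbound one. Lpar6 (-2.68) and Lpar4 (-2.85) fell too, while Lpar2, at 1.18, did not pass (adjusted p = 0.0518, edgeR) but rose in the blocked fit (1.22, adjusted p = 0.0444, edgeR). Lpar4 averaged 0.197 CPM in IP and passed the count filter through the unbound libraries, so the size of its fall rests on few IP reads. Slc46a1, the proton-coupled folate transporter, rose (1.07), as did Fgfr1, the receptor that Klotho joins (0.64), a call that was lost with the replicate block (adjusted p = 0.0699, edgeR).

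Relatives of the members were also compared in unbound replicate 3. Of 15 tested paralogs 0 were at least 4-fold lower there than in the other unbound libraries, against 2.10% of all genes tested. At that share 0 of 15 is the usual outcome and sets the paralogs apart from no other genes. Of the 15, 11 were higher, with a median difference of 0.47, beside 0.11 over all genes tested. Aqp4, the water channel of astrocytes, had 156 CPM there, compared with 73.7 and 75.3 CPM in unbound replicates 1 and 2. Between groups 9 of the 15 paralogs fell (8 without unbound replicate 3), against 23.2% of all genes tested (25.8% without that library). Among them were Enpp6 (-3.86), Clic4 (-2.71), Aqp9 (-4.19) and Enpp4 (-1.27). Aqp9 averaged 0.0786 CPM in IP and passed the count filter through the unbound libraries, so the size of its fall rests on few IP reads. Otx1 also fell (-0.90), a call lost with the replicate block (adjusted p = 0.0586, edgeR), while Enpp5, at 0.20, did not pass (adjusted p = 0.436, edgeR).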
